A study of Mus musculus with 24 samples.

Results

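The genes described here encode 10 enzymes of purine salvage, purine breakdown and adenosine handling: Ampd3, Ampd2, Nt5e, Ada, Adk, Pnp, Hprt, Aprt, Gda and Xdh. They were chosen with measured values in view, since Ampd3 was higher with sgB2m in all 4 tumour lines of the study and Gda appeared in 1 of them, so their changes between sgB2m and sgNT are given as a description. Where one of them is said to be called, this gives its place in the fit over all genes of a line and is not independent evidence of a change. Matching by gene symbol found 9 of the 10 among 28774 rows of MC38, all 10 among 27398 rows of LLC1, 8 among 28237 rows of AKR and all 10 among 26146 rows of Hepa1-6, 37 rows in all. Gda had no row in AKR, and no row of MC38 or AKR carried the symbol Pnp.

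The study asked what loss of MHC class I does in tumour cells, by RNA-seq of mouse lines in which B2m, the gene of the class I light chain, was targeted with a single guide RNA. The lines were MC38 (colon adenocarcinoma), LLC1 (Lewis lung carcinoma), AKR (esophageal carcinoma) and Hepa1-6 (hepatocellular carcinoma). Each line had 3 libraries with the B2m guide (sgB2m) and 3 with a non-targeting guide (sgNT), which made 24 libraries in 8 groups, and all cells grew in DMEM with 10% fetal bovine serum. The labels do not tell whether the replicates were independent cultures or whether edited cells were cloned, so the p-values below measure only the spread between these libraries. The deposited values were log2 normalised counts, with size factors set within each line, and normalised counts below are those values on the linear scale.

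Purine nucleotides are made from small precursors or rebuilt from bases and nucleosides. Inside the cell, AMP is deaminated to IMP by AMP deaminases, and nucleosides are split to bases that salvage enzymes return to nucleotides or that guanine deaminase and xanthine oxidoreductase carry to xanthine and urate. Outside the cell, CD73, encoded by Nt5e, turns AMP into adenosine, a ligand of G-protein-coupled receptors that dampens immune cells in tumours, and adenosine is removed by deamination or, after uptake, by phosphorylation.

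Promoters are shown for Ampd3, Gda and Nt5e, the gene that was higher in all 4 lines and those with the largest differences among the 10. They are RefSeq sequences of GRCm38.p6, the genome of mm10, each running from 250 bases before an annotated start to 50 bases after it on the gene's strand. Capitals mark every match, on either strand, to one of 5 short motifs. The GC box was searched as GGGCGG. The CCAAT box was searched as those same 5 letters. The TATA box was searched as TATAAA with no variant. The E-box was searched in its palindromic form, CACGTG, and for the AP-1 site any base was allowed in the middle of TGANTCA.
Ampd3 start 1, chr7:110768372-110768671, plus strand: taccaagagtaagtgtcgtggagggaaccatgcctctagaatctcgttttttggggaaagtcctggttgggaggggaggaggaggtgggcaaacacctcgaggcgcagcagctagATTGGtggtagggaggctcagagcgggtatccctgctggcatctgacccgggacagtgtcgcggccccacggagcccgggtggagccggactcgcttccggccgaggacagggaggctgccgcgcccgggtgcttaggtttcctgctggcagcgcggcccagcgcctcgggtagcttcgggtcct
Ampd3 start 2, chr7:110772354-110772653, plus strand: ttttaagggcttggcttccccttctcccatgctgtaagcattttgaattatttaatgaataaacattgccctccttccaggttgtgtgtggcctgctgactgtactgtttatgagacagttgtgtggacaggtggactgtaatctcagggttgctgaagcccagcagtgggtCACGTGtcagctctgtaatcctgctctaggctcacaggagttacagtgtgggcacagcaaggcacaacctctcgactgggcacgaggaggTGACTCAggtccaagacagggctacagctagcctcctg
Ampd3 start 3, chr7:110773386-110773685, plus strand: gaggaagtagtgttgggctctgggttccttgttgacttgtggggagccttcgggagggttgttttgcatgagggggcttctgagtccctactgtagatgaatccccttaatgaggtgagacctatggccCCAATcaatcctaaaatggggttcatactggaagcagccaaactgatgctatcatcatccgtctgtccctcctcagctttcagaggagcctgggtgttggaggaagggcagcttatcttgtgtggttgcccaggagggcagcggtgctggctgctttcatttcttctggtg
Gda, chr19:21472612-21472911, minus strand: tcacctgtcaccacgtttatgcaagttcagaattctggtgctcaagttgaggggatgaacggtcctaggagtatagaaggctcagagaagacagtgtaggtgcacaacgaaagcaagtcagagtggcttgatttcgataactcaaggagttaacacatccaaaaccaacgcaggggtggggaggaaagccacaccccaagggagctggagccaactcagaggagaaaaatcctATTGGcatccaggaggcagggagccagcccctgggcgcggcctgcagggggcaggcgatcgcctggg
Nt5e, chr9:88327359-88327658, plus strand: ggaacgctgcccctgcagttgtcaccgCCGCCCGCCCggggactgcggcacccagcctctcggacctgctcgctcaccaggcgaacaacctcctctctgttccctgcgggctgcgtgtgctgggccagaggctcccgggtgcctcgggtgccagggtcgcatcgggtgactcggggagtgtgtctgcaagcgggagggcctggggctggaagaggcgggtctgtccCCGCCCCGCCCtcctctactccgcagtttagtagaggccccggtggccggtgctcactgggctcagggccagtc

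No motif was found in the promoters of all 3 genes, though Gda and Ampd3 starts 1 and 3 each held 1 CCAAT box. The Nt5e window was 71% G and C with 23 CpG dinucleotides and held 4 GC boxes, in 2 places where neighbouring matches overlap. The Gda window was 55% G and C with 9 CpG dinucleotides and held 1 CCAAT box, at position -17 with the start counted as 0, and no GC box. Of the Ampd3 windows, that of start 1 was rich in CpG (22, at 65% G and C), while both others had 3 each. None of the 3 held a GC box. Start 1 had a CCAAT box at -135 and start 3 had one at -121, while start 2 had an E-box at -78 and an AP-1 site at 12. Over 32851 promoters of the same length, a GC box was found in 35.7%, a CCAAT box in 37.4%, a TATA box in 13.6%, an E-box in 7.15% and an AP-1 site in 7.81%. A match is a description of these letters only, and the gene-level values do not tell which Ampd3 start was used. RefSeq windows were found for 9 of the 10 genes.

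The MC38 libraries held 33.3 to 38.3 M counted reads with sgB2m and 28.4 to 49.7 M with sgNT, and those of the other lines 25.0 to 35.4 M. With sgB2m, B2m RNA was reduced, from 2.56-fold in Hepa1-6 to 3.43-fold in MC38 (limma, largest Benjamini-Hochberg adjusted p = 2.25e-08). It was not absent, and RNA values do not tell how much B2m protein remained. A mean of 6 or more on the log2 scale was reached by 5 of 6 hepatocyte markers in Hepa1-6 (the top one was Afp, 17.6). Of 6 squamous markers 2 did in AKR, the higher being Krt13 (8.27), and of 6 intestinal markers 1 did in MC38 (Lgals4, 6.73). Of 6 alveolar markers 2 did in LLC1, Abca3 (10.3) and Napsa (7.70), and Abca3 did so in all 4 lines. Most defining markers of the labelled tissue were thus below that level in AKR, MC38 and LLC1. Markers of other tissues reached it as well: 3 of the 6 intestinal markers in AKR and 4 in Hepa1-6, and 2 of the 6 squamous markers in MC38 (the top one was Krt14, 10.9). So did Afp in AKR (7.25), Krt5 in Hepa1-6 (8.16) and Cdx2 in LLC1 (6.10). None of 6 haematopoietic markers reached it in any line, the highest being Ptprc at 1.23 in Hepa1-6. In bulk libraries a smaller number of cells expressing a gene and less of its RNA per cell cannot be told apart.

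A gene was tested in a line if 3 or more of the 6 libraries had a log2 value of 3.5 or higher, and was called at an adjusted p under 0.05 over all genes tested in that line. Pnp needed care. The row with that symbol carries the identifier ENSMUSG00000021871, which GENCODE M21 names Gm49342, a gene overlapping Pnp, and it held 26 reads in LLC1 and 1 in Hepa1-6. The identifier that GENCODE M21 gives to Pnp, ENSMUSG00000115338, stands in all 4 tables without a symbol, and its values are used below. Pnp, Pnp2 and Gm49342 overlap on the plus strand of chromosome 14, so the division of reads among the 3 is uncertain.

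In MC38, 3 of the 10 were called higher (15.9% of the 16532 tested genes), 2 were called lower (15.8%) and 5 were not called, and the sgB2m and sgNT libraries did not overlap for 5 (45%). In LLC1, 9 passed the filter, of which 3 were called higher (20.7% of 15323) and 5 lower (21.8%), and 8 did not overlap (51.8%). In AKR, 9 passed, of which 5 were called higher (21% of 15882) and 3 lower (21.9%), and 8 did not overlap (52.5%). In Hepa1-6, all 10 passed, 3 were called higher (18.6% of 14910), 3 lower (19.2%), and 6 did not overlap (47.6%). Nothing is read from these shares, since the same contrast helped to choose the genes. Ampd3 was the 1 gene called in all 4 lines in the same direction, and 30 of the 12674 genes tested in every line (0.237%) were called higher in all 4. Nt5e was also called in all 4 lines, lower in MC38 and LLC1 and higher in AKR and Hepa1-6.

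**Figure D1:**
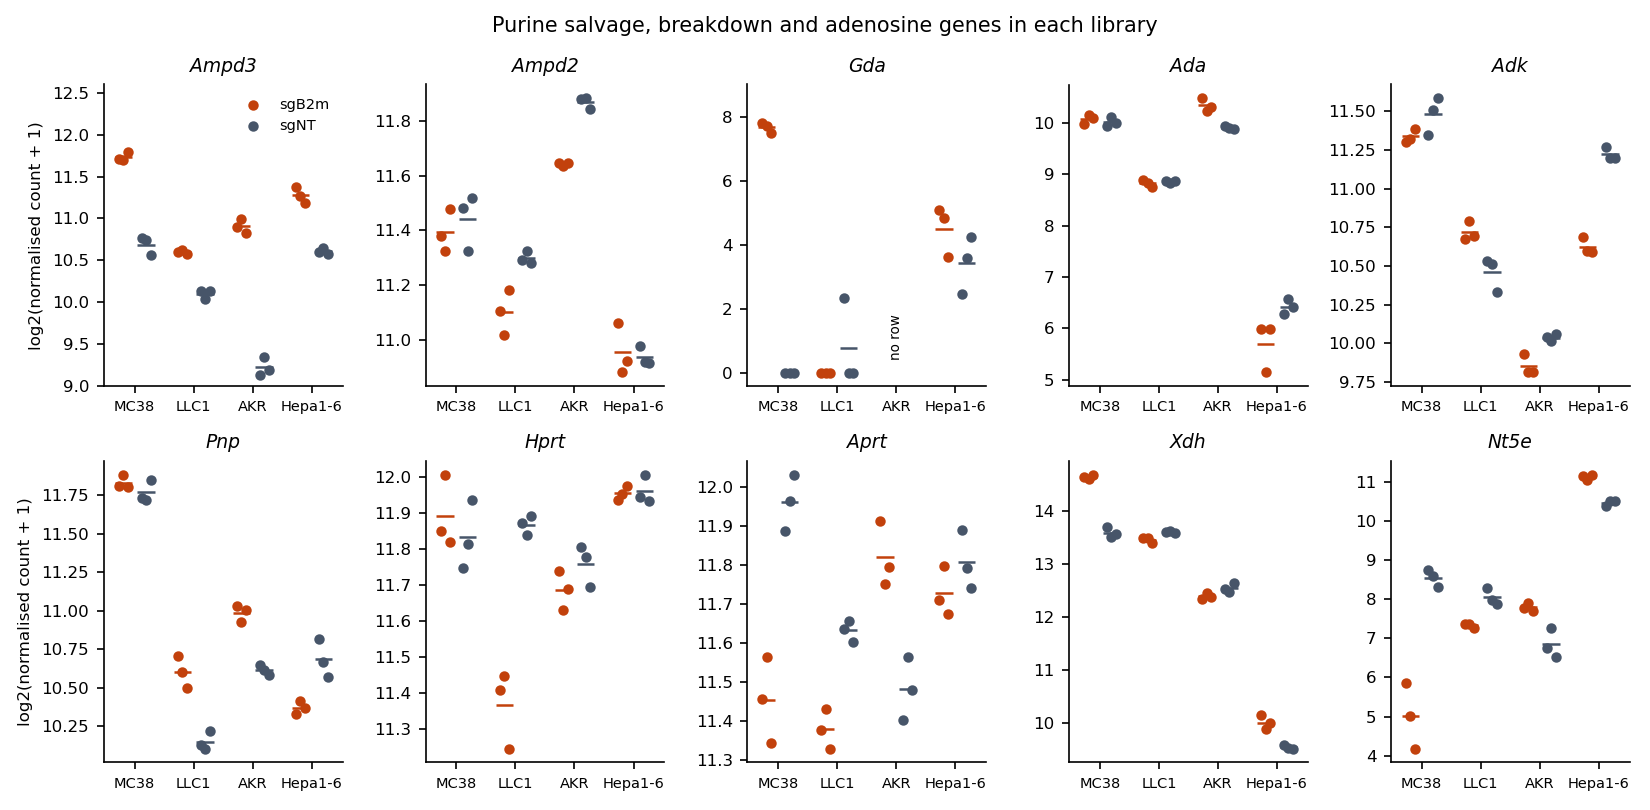
Log2 of the normalised count plus 1 for the 10 genes, each point 1 library and each bar the mean of 3, with sgB2m left of sgNT in each line and a separate vertical scale per gene. The sgB2m libraries lie above the sgNT libraries in every line for Ampd3 only, while Gda stands at 0 in the 3 MC38 sgNT libraries.

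Ampd3 encodes the erythrocyte-type AMP deaminase (ENSMUSG00000005686, chr7:110768206-110812405, plus strand, by GENCODE M21 on mm10, as for the genes below). In MC38 its normalised counts were 3343, 3319 and 3547 in sgB2m, against 1736, 1708 and 1513 in sgNT. In LLC1 they were 1549, 1573 and 1528 in sgB2m, against 1122, 1053 and 1118 in sgNT. Each sgB2m library stood above each sgNT library in both lines, by more in MC38 than in LLC1. In AKR they were 1905, 2031 and 1821 in sgB2m, against 559.7, 649.9 and 581.7 in sgNT. In Hepa1-6 they were 2657, 2469 and 2332 in sgB2m, against 1549, 1600 and 1529 in sgNT. The 2 groups were again apart in both lines, and AKR sgNT held the lowest values of all. The log2 fold change was 1.68 ± 0.073 (SE, 3 libraries per group) in AKR, 1.04 ± 0.066 in MC38, 0.67 ± 0.055 in Hepa1-6 and 0.50 ± 0.054 in LLC1, which is 3.21-fold, 2.06-fold, 1.59-fold and 1.41-fold of the sgNT mean count. In AKR 1.1% of the tested genes had a higher fold change than Ampd3, in MC38 4.78%, in Hepa1-6 6.94% and in LLC1 10.7%.

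Ampd2 (ENSMUSG00000027889, chr3:108074062-108086651, minus strand), the liver-type AMP deaminase, was lower with sgB2m in LLC1 and AKR and overlapped in the other 2 lines. In AKR its normalised counts were 3203, 3180 and 3207 in sgB2m, against 3772, 3780 and 3675 in sgNT, a log2 fold change of -0.23 ± 0.041. In LLC1 they were 2201, 2072 and 2319.9 in sgB2m, against 2505, 2566 and 2490 in sgNT, a log2 fold change of -0.20 ± 0.048. The differences were small beside those of Ampd3, and Ampd2 was not called in MC38 (-0.05 ± 0.067) or Hepa1-6 (0.02 ± 0.055).

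Set against each other per exon length, as reads scaled to exon length and sequencing depth (RPKM), the 2 AMP deaminases shifted toward Ampd3 in every line. Ampd3 made up 54.0% ± 0.51 of their summed RPKM in MC38 sgB2m (SD, 3 libraries) and 35.5% ± 2.9 in sgNT. The share was 39.6% ± 1.7 in LLC1 sgB2m and 28.8% ± 1.0 in sgNT. It was 35.8% ± 1.4 in AKR sgB2m and 12.9% ± 0.83 in sgNT, and in Hepa1-6 it was 53.8% ± 1.1 in sgB2m and 42.5% ± 0.92 in sgNT. Ampd3 thus passed Ampd2 in MC38 and Hepa1-6 sgB2m cells and stayed the lesser of the pair in all other groups. The summed RPKM of the pair was 30.9 ± 1.3 in MC38 sgB2m and 23.2 ± 0.71 in sgNT, 31.4 ± 0.54 in AKR sgB2m and 26.1 ± 0.61 in sgNT, and 29.3 ± 1.9 in Hepa1-6 sgB2m and 22.9 ± 0.49 in sgNT. In LLC1 the sums were nearer, at 25.8 ± 0.93 in sgB2m and 24.6 ± 0.10 in sgNT. Ampd3 itself was highest per length in MC38 sgB2m (16.7 RPKM) and Hepa1-6 sgB2m (15.7), whose libraries overlap, then in AKR sgB2m (11.2) and LLC1 sgB2m (10.2). All sgB2m groups stood above all sgNT groups, which ran from 9.73 in Hepa1-6 through 8.24 in MC38 and 7.07 in LLC1 to 3.37 in AKR. Tables of different lines were normalised separately, so levels between lines are described and not tested.

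**Figure D2:**
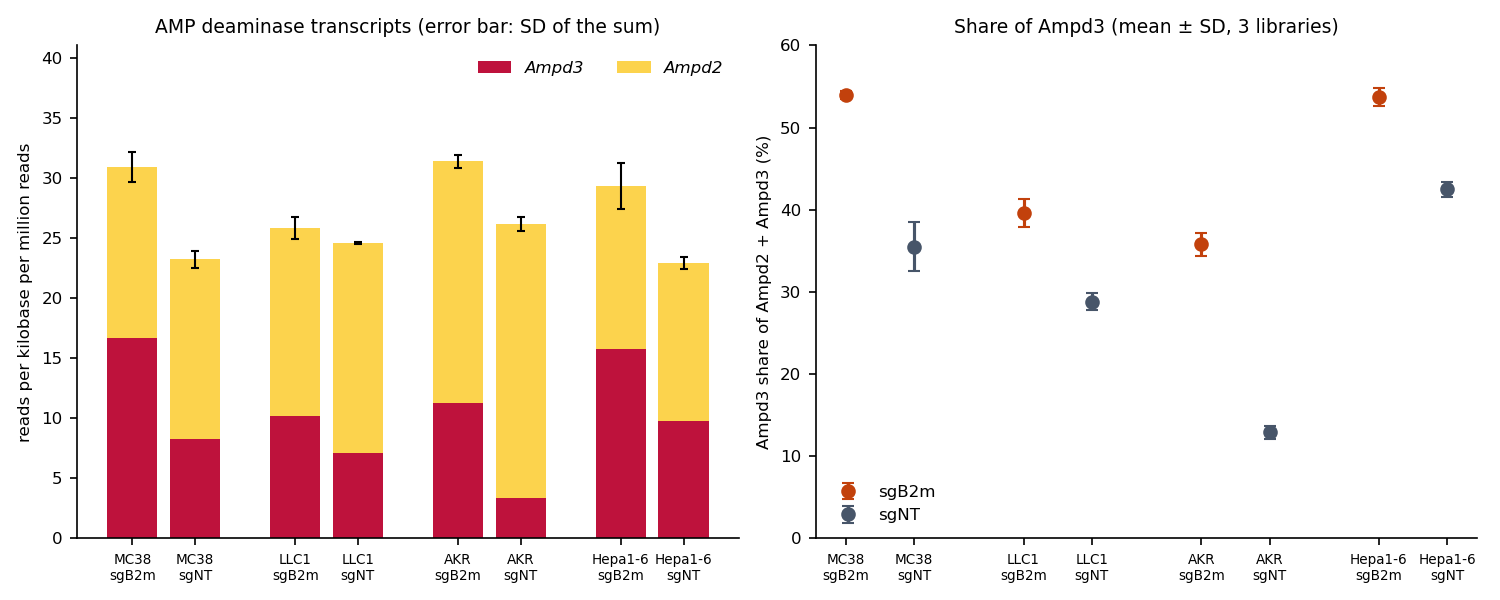
Left, mean RPKM of Ampd3 and Ampd2 stacked per group of 3 libraries, with the SD of their sum as the error bar; right, the percentage of that sum due to Ampd3 (mean ± SD). The share is higher in sgB2m than in sgNT in each line, from 35.8% against 12.9% in AKR to 53.8% against 42.5% in Hepa1-6.

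The AMP deaminases and the product of Nt5e act on the same substrate, inside and outside the cell, and Nt5e was higher with sgB2m in 2 of the 4 lines. Nt5e encodes CD73, the membrane enzyme that releases adenosine from extracellular AMP (ENSMUSG00000032420, chr9:88327197-88372092, plus strand). In MC38 its normalised counts were 57.5, 31.5 and 17.1 in sgB2m, against 424.0, 384.2 and 315.3 in sgNT, from 100 reads in all in sgB2m and 1184 in sgNT. In LLC1 they were 163.6, 164.3 and 152.1 in sgB2m, against 311.9, 250.9 and 233.3 in sgNT. All sgB2m libraries were lower than all sgNT libraries in these lines, and the 3 MC38 sgB2m libraries also lay apart from each other. In AKR the counts were 218.9, 236.7 and 207.0 in sgB2m, against 106.9, 151.8 and 91.5 in sgNT. In Hepa1-6 they were 2261, 2110 and 2316 in sgB2m, against 1331, 1453 and 1451 in sgNT. Here all sgB2m libraries were higher. The log2 fold change was -3.52 ± 0.36 in MC38, 10.6-fold lower in mean count, and -0.72 ± 0.14 in LLC1, against 0.94 ± 0.18 in AKR and 0.66 ± 0.057 in Hepa1-6. Hepa1-6 held by far the most Nt5e per length, 9.23 RPKM in sgB2m and 5.77 in sgNT, while MC38 sgB2m held the least at 0.114 against 1.22 in MC38 sgNT. The other groups lay between 0.431 (AKR sgNT) and 1.12 (LLC1 sgNT), and the libraries of MC38 sgNT and LLC1 sgNT overlapped.

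The 2 enzymes that remove adenosine are adenosine deaminase (Ada, which makes inosine) and adenosine kinase (Adk, which makes AMP), and they differed between lines. Ada (ENSMUSG00000017697, chr2:163726584-163750239, minus strand) was higher with sgB2m in AKR, at 1430, 1209 and 1276 normalised counts, against 980.6, 952.5 and 949.6 in sgNT (log2 fold change 0.44 ± 0.070). In Hepa1-6, where Ada was scarce, the counts were 62.3, 34.5 and 62.1 in sgB2m, against 77.3, 94.0 and 84.2 in sgNT (-0.72 ± 0.27). This decrease rested on 148 reads in sgB2m and 275 in sgNT, and its call was lost under 7 of 13 alternatives, among them no filter, no intensity trend, and leaving out sgB2m replicate 2 or any 1 of the sgNT libraries. In MC38 (0.06 ± 0.079) and LLC1 (-0.04 ± 0.082) the libraries overlapped.

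Adk (ENSMUSG00000039197, chr14:21052574-21448569, plus strand) was lower with sgB2m in Hepa1-6, at 1648, 1547 and 1538 normalised counts, against 2465, 2346 and 2348 in sgNT (log2 fold change -0.60 ± 0.051). In LLC1 it was higher, at 1629.6, 1768 and 1652 in sgB2m, against 1482, 1463 and 1289.5 in sgNT (0.26 ± 0.062). In AKR it was called lower, at 974.1, 898.8 and 901.2 in sgB2m, against 1051, 1033 and 1065 in sgNT (-0.18 ± 0.062). The groups did not overlap in these 3 lines, but the AKR call was lost under 6 of 13 alternatives, among them leaving out sgB2m replicate 2 or 3 or any 1 of the sgNT libraries. In MC38 the fold change was -0.14 ± 0.067 and the groups overlapped; without sgNT replicate 1 it was called lower.

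The ratio of Ada to Adk per length spanned a wide range between lines. It was 6.00 ± 0.26 in AKR sgB2m and 3.90 ± 0.091 in AKR sgNT, and 1.78 ± 0.11 in MC38 sgB2m and 1.55 ± 0.11 in MC38 sgNT. It was 1.15 ± 0.078 in LLC1 sgB2m and 1.41 ± 0.13 in LLC1 sgNT, and 0.143 ± 0.042 in Hepa1-6 sgB2m and 0.152 ± 0.019 in Hepa1-6 sgNT. Per length, Ada thus stood above Adk in 3 lines and below it in Hepa1-6, with either guide. This order rests on the merged exon lengths used, 2002 bases for Ada and 8526 for Adk. Unscaled, MC38 sgB2m held 3137 reads of Ada and 7502 of Adk, and LLC1 sgB2m 1389 and 5168. AKR sgB2m held 3978 of Ada and 2818 of Adk, and AKR sgNT 2855 and 3122. The lengths do not affect the comparison of sgB2m with sgNT. The ratio was higher with sgB2m in AKR and MC38 and lower in LLC1, without overlap of libraries, and it overlapped in Hepa1-6. Ada was highest per length in AKR sgB2m (21.4 RPKM), and 0.941 in Hepa1-6 sgB2m was its lowest level.

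Pnp (chr14:50931082-50965237, plus strand), the purine nucleoside phosphorylase that splits inosine and guanosine into base and sugar phosphate, was higher with sgB2m in LLC1 and AKR and lower in Hepa1-6. In LLC1 its normalised counts were 1670.3, 1556 and 1444 in sgB2m, against 1119.6, 1101 and 1191 in sgNT (log2 fold change 0.45 ± 0.063). In AKR they were 2087.5, 1949 and 2053 in sgB2m, against 1606.5, 1564.5 and 1531 in sgNT (0.37 ± 0.052). In Hepa1-6 they were 1287, 1364 and 1323 in sgB2m, against 1802, 1628 and 1519 in sgNT (-0.31 ± 0.065). The groups did not overlap in these 3 lines, and in MC38, which had the most Pnp per length (25.3 RPKM in sgB2m and 24.6 in sgNT), they did (0.06 ± 0.054). Pnp2, its neighbour and close relative on chromosome 14, had the same directions: 0.69 ± 0.18 in LLC1 (adjusted p = 0.00619), 0.74 ± 0.16 in AKR (adjusted p = 0.00375) and -0.50 ± 0.17 in Hepa1-6 (adjusted p = 0.0294). Pnp2 lies within the span in which reads of the 2 genes may be shared. Its Hepa1-6 call ended with no filter and without sgB2m replicate 2 or 3 or sgNT replicate 1 or 2, with an adjusted p of up to 0.101 over 13 alternatives.

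The 2 phosphoribosyltransferases of base salvage are Hprt, which takes up hypoxanthine and guanine, and Aprt, which takes up adenine. Hprt (ENSMUSG00000025630, chrX:52988137-53021659, plus strand) was lower with sgB2m in LLC1, at 2718, 2793 and 2429 normalised counts, against 3746, 3661 and 3797 in sgNT (log2 fold change -0.50 ± 0.050). Its libraries overlapped in MC38 (0.06 ± 0.067), AKR (-0.07 ± 0.049) and Hepa1-6 (-0.01 ± 0.037). Hprt was called in LLC1 alone. Aprt (ENSMUSG00000006589, chr8:122574635-122576909, minus strand) was lower in MC38, at 2809, 3028 and 2599.8 in sgB2m, against 3788, 3996 and 4189 in sgNT (-0.51 ± 0.066). In LLC1 Aprt was at 2661.5, 2763 and 2572 in sgB2m, against 3183, 3229.7 and 3113 in sgNT (-0.25 ± 0.042). In AKR it was higher, at 3857, 3449 and 3553 in sgB2m, against 2707, 3026 and 2858 in sgNT (0.34 ± 0.058). The groups were apart in these 3 lines and overlapped in Hepa1-6 (-0.08 ± 0.047). The ratio of Hprt to Aprt per length was 1.70 ± 0.049 in MC38 sgB2m and 1.15 ± 0.023 in MC38 sgNT, and it was the other way round in LLC1 (1.24 ± 0.052 in sgB2m and 1.47 ± 0.054 in sgNT) and in AKR (1.14 ± 0.028 in sgB2m and 1.52 ± 0.12 in sgNT). In Hepa1-6 the ratio was 1.47 ± 0.073 in sgB2m and 1.39 ± 0.083 in sgNT, and the libraries overlapped. Both were abundant everywhere, Hprt between 76.0 RPKM (LLC1 sgB2m) and 109.6 (Hepa1-6 sgB2m), and Aprt between 48.1 (MC38 sgB2m) and 78.1 (Hepa1-6 sgNT).

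Gda encodes guanine deaminase, which turns guanine into xanthine and so takes it out of salvage (ENSMUSG00000058624, chr19:21391307-21473445, minus strand). In MC38 its normalised counts were 221.2, 208.4 and 176.7 in sgB2m, from 582 reads, while all 3 sgNT libraries held 0 reads. Against a floor of 3 reads per library the mean was at least 68.8-fold higher with sgB2m, a bound that covers counting error only. Its fitted log2 fold change, 7.66 ± 0.43, ranked first of the 16532 genes tested in MC38 but depends on the pseudocount (4.71 with a pseudocount of 8). Gda passed the filter in MC38 only through its sgB2m libraries, and it could not be tested in MC38 when any 1 of the sgB2m libraries was left out, since it was then under the filter. In Hepa1-6 the counts were 32.8, 27.4 and 11.3 in sgB2m, against 4.5, 10.9 and 17.8 in sgNT, which overlapped (1.08 ± 0.56, 68 against 37 reads). LLC1 held 0 reads in sgB2m and 4 in 1 sgNT library. Even at its highest, 0.895 RPKM in MC38 sgB2m, Gda was far below Xdh, the next enzyme of the route.

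Xdh (ENSMUSG00000024066, chr17:73883895-73950196, minus strand) encodes xanthine oxidoreductase, which makes xanthine from hypoxanthine and urate from xanthine. In MC38 its normalised counts were 25441, 24825 and 26239.9 in sgB2m, against 13267, 11669 and 12036 in sgNT (log2 fold change 1.05 ± 0.051, 2.07-fold). In Hepa1-6 they were 1127, 938.3 and 1019.6 in sgB2m, against 769.4, 738.7 and 729.4 in sgNT (0.46 ± 0.078). In these lines every sgB2m library was above every sgNT library. In LLC1 they were 11417, 11508 and 10783 in sgB2m, against 12333, 12533 and 12203 in sgNT (-0.14 ± 0.031). In AKR they were 5190.0, 5617 and 5329 in sgB2m, against 5863, 5644 and 6339.7 in sgNT (-0.14 ± 0.052). The libraries were apart in both, by much less than in MC38, and the AKR call was lost under 8 of 13 alternatives, among them no filter and leaving out sgB2m replicate 1 or 3 or sgNT replicate 1 or 3. Quantile normalisation or a fit with no intensity trend ended the call in both lines. Per length, Xdh was highest in MC38 sgB2m (76.7 RPKM, against 37.7 in MC38 sgNT), then in LLC1 (45.4 in sgB2m and 48.8 in sgNT) and AKR (19.3 in sgB2m and 20.6 in sgNT, overlapping), and lowest in Hepa1-6 (3.99 in sgB2m and 2.86 in sgNT).

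**Figure D3:**
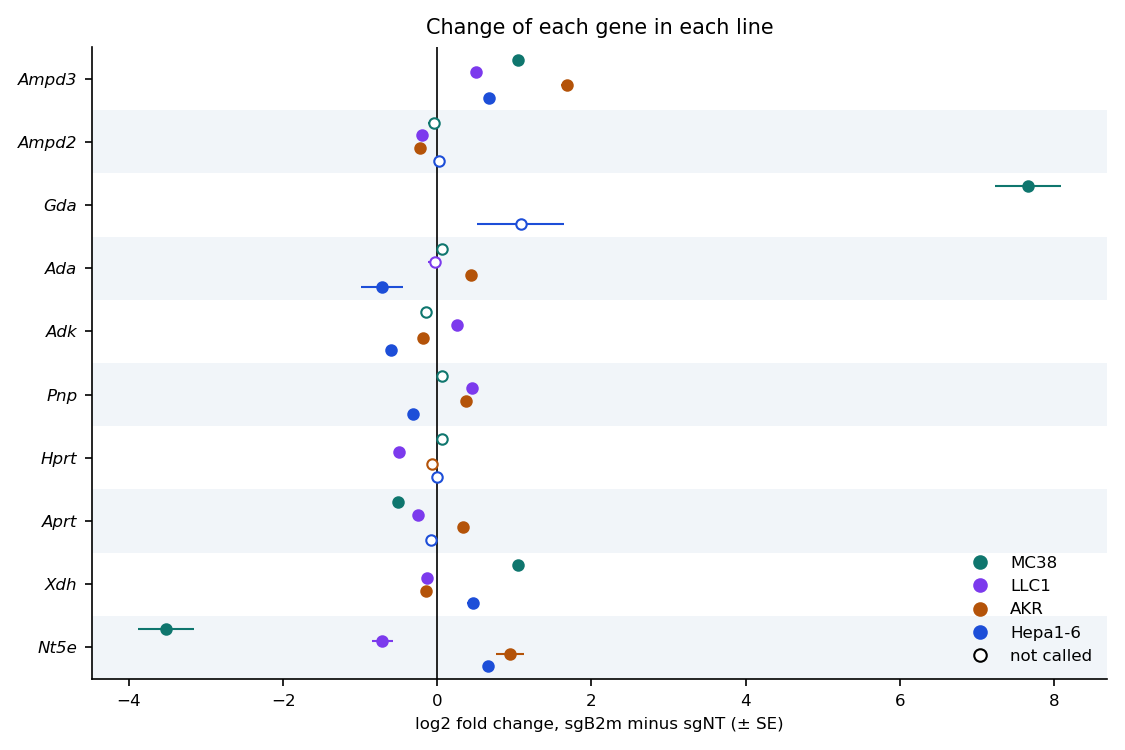
Log2 fold change (sgB2m minus sgNT, ± SE of the fit, 3 libraries per group) of each of the 10 genes in each line, with filled points called and open points not called. Ampd3 lies right of 0 in all 4 lines, Gda in MC38 lies at 7.66, and Nt5e runs from -3.52 in MC38 to 0.94 in AKR.

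Read line by line, MC38 sgB2m cells had more Ampd3, Gda and Xdh and less Nt5e and Aprt. LLC1 sgB2m cells had more Ampd3, Pnp and Adk and less Nt5e, Hprt, Aprt, Ampd2 and Xdh. AKR sgB2m cells had more Ampd3, Nt5e, Ada, Pnp and Aprt and less Ampd2, Adk and Xdh. Hepa1-6 sgB2m cells had more Ampd3, Nt5e and Xdh and less Ada, Adk and Pnp. Of these calls, those of Xdh in LLC1 and AKR ended under 2 and 8 of 13 alternatives. Those of Adk in AKR and Ada in Hepa1-6 ended under 6 and 7. Over members that passed the filter, the median log2 fold change was 0.34 in AKR, 0.06 in MC38, 0.01 in Hepa1-6 and -0.14 in LLC1. With rows matched by symbol alone it was 0.13 in AKR, 0.06 in MC38, 0.02 in Hepa1-6 and -0.17 in LLC1. Over all tested genes the median lay between -0.01 (Hepa1-6) and 0.01 (LLC1). No conclusion is drawn from these medians, since the same contrast helped to choose the genes.

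The genes whose values were most like those of Ampd3 were ranked by Pearson's r over the 24 libraries, after each line's mean was subtracted, among 12674 genes. They were Specc1 (r = 0.951), a cytoskeletal protein gene, Fabp4 (0.942), which encodes a fatty acid-binding protein, Zfyve1 (0.942), which encodes a FYVE-domain protein, Oas3 (0.938), an interferon-induced oligoadenylate synthetase, and Snx18 (0.936), a sorting nexin. The libraries share lines, depth and the guide contrast by which Ampd3 was chosen, and r is a description with no test. The log2 fold change of Fabp4 was 2.70 in AKR, 2.58 in MC38, 1.39 in Hepa1-6 and 0.55 in LLC1, and that of Zfyve1 was 0.69, 0.49, 0.35 and 0.34 in the same order of lines. Fabp4 was not called in Hepa1-6, and Specc1 and Oas3 were not called in LLC1. Within the 10 genes, r with Ampd3 was 0.45 for Pnp, 0.43 for Xdh, 0.13 for Ada, -0.10 for Aprt, -0.23 for Nt5e, -0.27 for Hprt, -0.47 for Adk and -0.64 for Ampd2.

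Genes within 250 kb of 4 of the members were looked at as well, a window chosen after the values of these genes were known. Of the tested neighbours of Ampd3, 2 of 5 were called higher and 1 lower in MC38, 2 of 4 higher in LLC1, 1 of 4 higher and 1 lower in AKR, and 2 of 6 higher and 1 lower in Hepa1-6. Over all tested genes, 15.9% (MC38) to 21% (AKR) were called higher and 15.8% (MC38) to 21.9% (AKR) lower, and nothing is read from counts this small. Adm, which encodes adrenomedullin and lies near Ampd3, was higher with sgB2m in MC38 (log2 fold change 2.68 ± 0.36, adjusted p = 3.83e-04) and in LLC1 (1.17 ± 0.056, adjusted p = 8.97e-10), and was not tested in AKR or Hepa1-6. Ctr9, a subunit of the PAF1 complex, was higher in LLC1 (0.38) and AKR (0.34) and lower in Hepa1-6 (-0.43). Rnf141, which overlaps Ampd3 on the opposite strand, was lower in MC38 (-0.19 ± 0.059, adjusted p = 0.0343) and not called in the other lines. Whether reads were counted by strand is not given in the sources used here, so reads of the overlap may be shared between the 2 genes. Of the tested neighbours of Gda in MC38, 1 of 4 was called higher. Of those of Nt5e in MC38, 1 of 8 was called lower (Snhg5, -0.22 ± 0.072, adjusted p = 0.0397). Of the 7 tested near Nt5e in each other line, 1 was called higher and 2 lower in LLC1 and in AKR. In Hepa1-6, 3 were called higher and 1 lower. Snhg5 was lower in LLC1 (-1.38 ± 0.042, adjusted p = 7.87e-12) and AKR (-0.78 ± 0.058, adjusted p = 2.75e-06). It was higher in Hepa1-6 (0.89 ± 0.079, adjusted p = 2.98e-07). The 3 tested neighbours of Xdh in MC38 had log2 fold changes between -0.11 and -0.05, beside 1.05 for Xdh itself. Near Xdh, 1 of 2 tested neighbours was called lower in LLC1 (Memo1, -0.45 ± 0.047, adjusted p = 3.10e-06) and in AKR (Memo1, -0.15 ± 0.043, adjusted p = 0.0130). In Hepa1-6, 1 of 2 was called higher (CT010445.1, 0.72 ± 0.26, adjusted p = 0.0376). These had the direction of Xdh in the same line, and a link was not tested.

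Around the 10 genes, a list of 67 other purine genes in 9 roles was read from the same fits. In MC38, 6 of 53 tested were called higher (11.3%) and 18 lower (34.0%). In LLC1, 11 of 50 were called higher (22.0%) and 22 lower (44.0%), and in Hepa1-6 11 of 52 higher (21.2%) and 23 lower (44.2%). In AKR the split was 18 of 56 higher (32.1%) and 15 lower (26.8%). The shares over all genes are those given above, and the list's median log2 fold change was -0.12 in MC38, LLC1 and Hepa1-6 and 0.01 in AKR. Of 46 genes of the list tested in every line, 2 were called in the same direction in all 4, both lower (4.35%), against 49 of the 12674 genes tested in every line (0.387%). The 2, named for that count, were Nme1, a nucleoside diphosphate kinase, and Slc29a1, the equilibrative nucleoside transporter ENT1. The log2 fold change of Nme1 was -0.63 ± 0.036 in Hepa1-6, -0.55 ± 0.053 in LLC1, -0.24 ± 0.059 in MC38 and -0.20 ± 0.066 in AKR (largest adjusted p = 0.032). That of Slc29a1 was -0.68 ± 0.044 in LLC1, -0.38 ± 0.047 in AKR, -0.32 ± 0.048 in MC38 and -0.12 ± 0.041 in Hepa1-6 (largest adjusted p = 0.0331). The AKR call of Nme1 ended under 7 of 13 alternatives, among them those without sgB2m replicate 2 or 3 or sgNT replicate 1 or 2 (adjusted p up to 0.154), and its MC38 call ended with no intensity trend (0.0642). The Hepa1-6 call of Slc29a1 ended under 5 of 13, among them those without sgB2m replicate 1 or 3 or sgNT replicate 3 (adjusted p up to 0.159).

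Of the 8 enzymes of de novo synthesis, 3 were lower and 2 higher in MC38, 5 lower and 2 higher in LLC1, 2 lower and 4 higher in AKR, and 5 lower and 1 higher in Hepa1-6. Over all tested genes the called shares ran from 15.8% lower and 15.9% higher in MC38 to 21.9% lower and 21% higher in AKR. These shares are the background for each count by role. Gart, which carries out several early steps, was lower in Hepa1-6, at 3596 ± 125 normalised counts in sgB2m and 5006 ± 49.7 in sgNT (-0.48 ± 0.037, adjusted p = 7.24e-08). Gart was also lower in MC38 (-0.53 ± 0.047, adjusted p = 2.89e-05) and LLC1 (-0.36 ± 0.043, adjusted p = 1.04e-05), and it was higher in AKR (0.49 ± 0.046, adjusted p = 1.19e-05). Prps1, which makes the activated ribose phosphate used in de novo synthesis and base salvage, was lower in MC38, at 2188 ± 26.0 in sgB2m and 3199 ± 107 in sgNT (-0.55 ± 0.051, adjusted p = 4.12e-05). It was also called lower in LLC1 (-0.63) and AKR (-0.19). Its relative Prps2 was called higher in MC38 (0.20 ± 0.055, adjusted p = 0.0228), LLC1 (0.52) and AKR (0.28), and lower in Hepa1-6 (-0.23). The calls of Prps1 in AKR and of Prps2 in MC38 and Hepa1-6 ended under 3, 5 and 2 of 13 alternatives. Of the 8 genes of the AMP and GMP branches, all were tested in MC38 and AKR, 7 in LLC1 and 6 in Hepa1-6. In MC38 4 were called, each lower, and in LLC1 4 lower and 3 higher. In AKR 1 was lower and 4 higher, and in Hepa1-6 3 were lower and 1 higher. Gmpr, the reductase that returns GMP to IMP, was lower in MC38, at 68.0 ± 14 in sgB2m and 241 ± 31 in sgNT (-1.82 ± 0.20, adjusted p = 1.15e-04). In LLC1 it was higher (0.68 ± 0.20, adjusted p = 0.0141), a call that ended without sgB2m replicate 1 or sgNT replicate 2, with no filter or with no intensity trend (adjusted p up to 0.107 over 13 alternatives).

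Among 11 nucleotide and nucleoside kinases, 4 were called in MC38, each lower, with 5 lower and 1 higher in LLC1, 4 lower and 3 higher in AKR, and 6 lower and 2 higher in Hepa1-6. The mitochondrial adenylate kinase Ak4 was lower in MC38 (-0.71 ± 0.11, adjusted p = 0.0011), and its call as higher in Hepa1-6 (0.23 ± 0.085, adjusted p = 0.0458) ended under 10 of 13 alternatives (up to 0.191). In Hepa1-6, Ak5 was higher (1.48 ± 0.34, adjusted p = 0.00249) and Ak1 was lower (-0.78 ± 0.29, adjusted p = 0.0468). The Ak1 call rested on low counts, 36.8 ± 8.2 in sgB2m and 64.2 ± 16 in sgNT, and ended under 8 of 13 alternatives, among them no filter, no intensity trend and leaving out any library but sgB2m replicate 3 (adjusted p up to 0.208). In AKR, where Ak1 was more abundant, it was higher (0.73 ± 0.066, adjusted p = 9.65e-06). Ak5 was lower in MC38 (-0.34 ± 0.075, adjusted p = 0.00635) and in LLC1 (-0.35 ± 0.074, adjusted p = 0.00173). Of the 9 intracellular nucleotidases and clean-up enzymes, 8 were tested, with 3 lower and 1 higher in MC38, 2 lower and 1 higher in LLC1, 3 lower in AKR, and 5 lower and 1 higher in Hepa1-6. In AKR the adenosine deaminase-like gene Adal was lower, at 154 ± 8.2 in sgB2m and 357 ± 35 in sgNT (-1.20 ± 0.11, adjusted p = 1.45e-05), as was the mitochondrial nucleotidase gene Nt5m (-0.42 ± 0.10, adjusted p = 0.00761).

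The 2 sources of adenosine and adenine in the list were both lower in MC38 and LLC1. Mtap, which frees adenine from methylthioadenosine, was lower in MC38, at 6109 ± 289.9 normalised counts in sgB2m and 10167 ± 54.7 in sgNT (-0.74 ± 0.045, adjusted p = 2.47e-06). In MC38 the transcripts that release adenine (Mtap) and reuse it (Aprt) were thus both fewer with sgB2m. Both were called lower in LLC1 as well, Mtap at -0.32 ± 0.040 (adjusted p = 1.49e-05) and Aprt at -0.25 ± 0.042. Among the extracellular enzymes that lead up to or run beside CD73, Enpp3 was higher in MC38, at 87.9 ± 23 in sgB2m and 26.2 ± 16 in sgNT (1.83 ± 0.41, adjusted p = 0.00691). It was also higher in Hepa1-6 (1.24 ± 0.40, adjusted p = 0.0234), though not without sgB2m replicate 2 or 3 or sgNT replicate 1, or with no filter (adjusted p up to 0.090 over 12 alternatives). Enpp1 was higher in Hepa1-6 (0.49 ± 0.080, adjusted p = 1.68e-04). In AKR, Alpl, the alkaline phosphatase that can also strip AMP, was lower from few counts, 12.7 ± 8.0 in sgB2m and 49.9 ± 7.9 in sgNT (-2.06 ± 0.43, adjusted p = 0.00284). Entpd3 was lower in AKR as well (-0.70 ± 0.25, adjusted p = 0.0417), a call that ended without sgB2m replicate 2 or 3 or sgNT replicate 1 or 3, with no filter and with no intensity trend (up to 0.171 over 13 alternatives). Of the 10 genes listed in this role, 6 were tested in MC38 and AKR, 5 in LLC1 and 7 in Hepa1-6. In MC38 Enpp3 alone was called and in LLC1 Entpd4 alone, both higher. In AKR 3 were higher (Entpd4, Entpd5 and Entpd6) and 2 lower (Alpl and Entpd3). The AKR call of Entpd5 ended under 7 of 13 alternatives. In Hepa1-6 2 were higher (Enpp1 and Enpp3) and 1 lower (Entpd5). Where the products of the Entpd genes act was not examined.

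Adenosine leaves and enters cells through transporters and acts through receptors. Of the 10 transporters of nucleosides, bases and urate, 7 were tested in MC38 and Hepa1-6 and 6 in LLC1 and AKR. Called among these were 1 higher and 1 lower in MC38, and 1 higher and 3 lower in LLC1. In AKR 3 were lower, and in Hepa1-6 3 were higher and 1 lower. Slc28a3, a sodium-coupled nucleoside transporter, was higher in Hepa1-6, at 1334 ± 34.8 normalised counts in sgB2m and 141 ± 28 in sgNT (3.25 ± 0.13, adjusted p = 2.46e-11). In LLC1, Slc29a2, a relative of Slc29a1, was lower (-0.71 ± 0.12, adjusted p = 1.82e-04), while in Hepa1-6 it was higher (0.43 ± 0.092, adjusted p = 0.0017). In LLC1 the urate transporter gene Slc2a9 was higher (0.54 ± 0.14, adjusted p = 0.00627). The purine base transporter gene Slc43a3 was higher in MC38 (0.32 ± 0.053, adjusted p = 0.00136) and lower in LLC1, at 64.7 ± 14 in sgB2m and 178 ± 17 in sgNT (-1.47 ± 0.19, adjusted p = 2.33e-05). It was also higher in Hepa1-6 (0.26) and lower in AKR (-0.41). Of the 4 receptor genes, Adora2b alone was tested in MC38 and LLC1, Adora1 alone in Hepa1-6, and 3 were tested in AKR. Adora2b, a stimulatory receptor, was higher in MC38, at 187 ± 29 in sgB2m and 117 ± 17 in sgNT (0.67 ± 0.18, adjusted p = 0.0199), and in AKR, at 55.4 ± 9.6 in sgB2m and 29.7 ± 3.1 in sgNT (0.87 ± 0.25, adjusted p = 0.0154). In LLC1 it was lower, at 68.8 ± 7.4 in sgB2m and 113 ± 11 in sgNT (-0.71 ± 0.18, adjusted p = 0.00587). The MC38 call ended without sgB2m replicate 3 or sgNT replicate 2 (up to 0.0857 over 13 alternatives) and the AKR call without sgB2m replicate 2 (up to 0.0601). Adora1, an inhibitory receptor, was higher in AKR, at 118 ± 5.1 in sgB2m and 38.5 ± 12 in sgNT (1.63 ± 0.23, adjusted p = 2.32e-04). In Hepa1-6 Adora1 was higher as well, by less (0.37, adjusted p = 1.17e-04). Lacc1, which encodes a purine nucleoside enzyme, was higher in LLC1 (0.88 ± 0.076, adjusted p = 4.53e-07) and lower in MC38 (-0.41 ± 0.073, adjusted p = 0.00205). Urah, which acts past urate, was at 12.5 ± 1.3 in sgB2m and 0.649 ± 1.1 in sgNT of AKR. It passed the filter there only through its sgB2m libraries and so had to differ, and its log2 fold change of 3.23 was 1.25 with a pseudocount of 8.

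**Figure D4:**
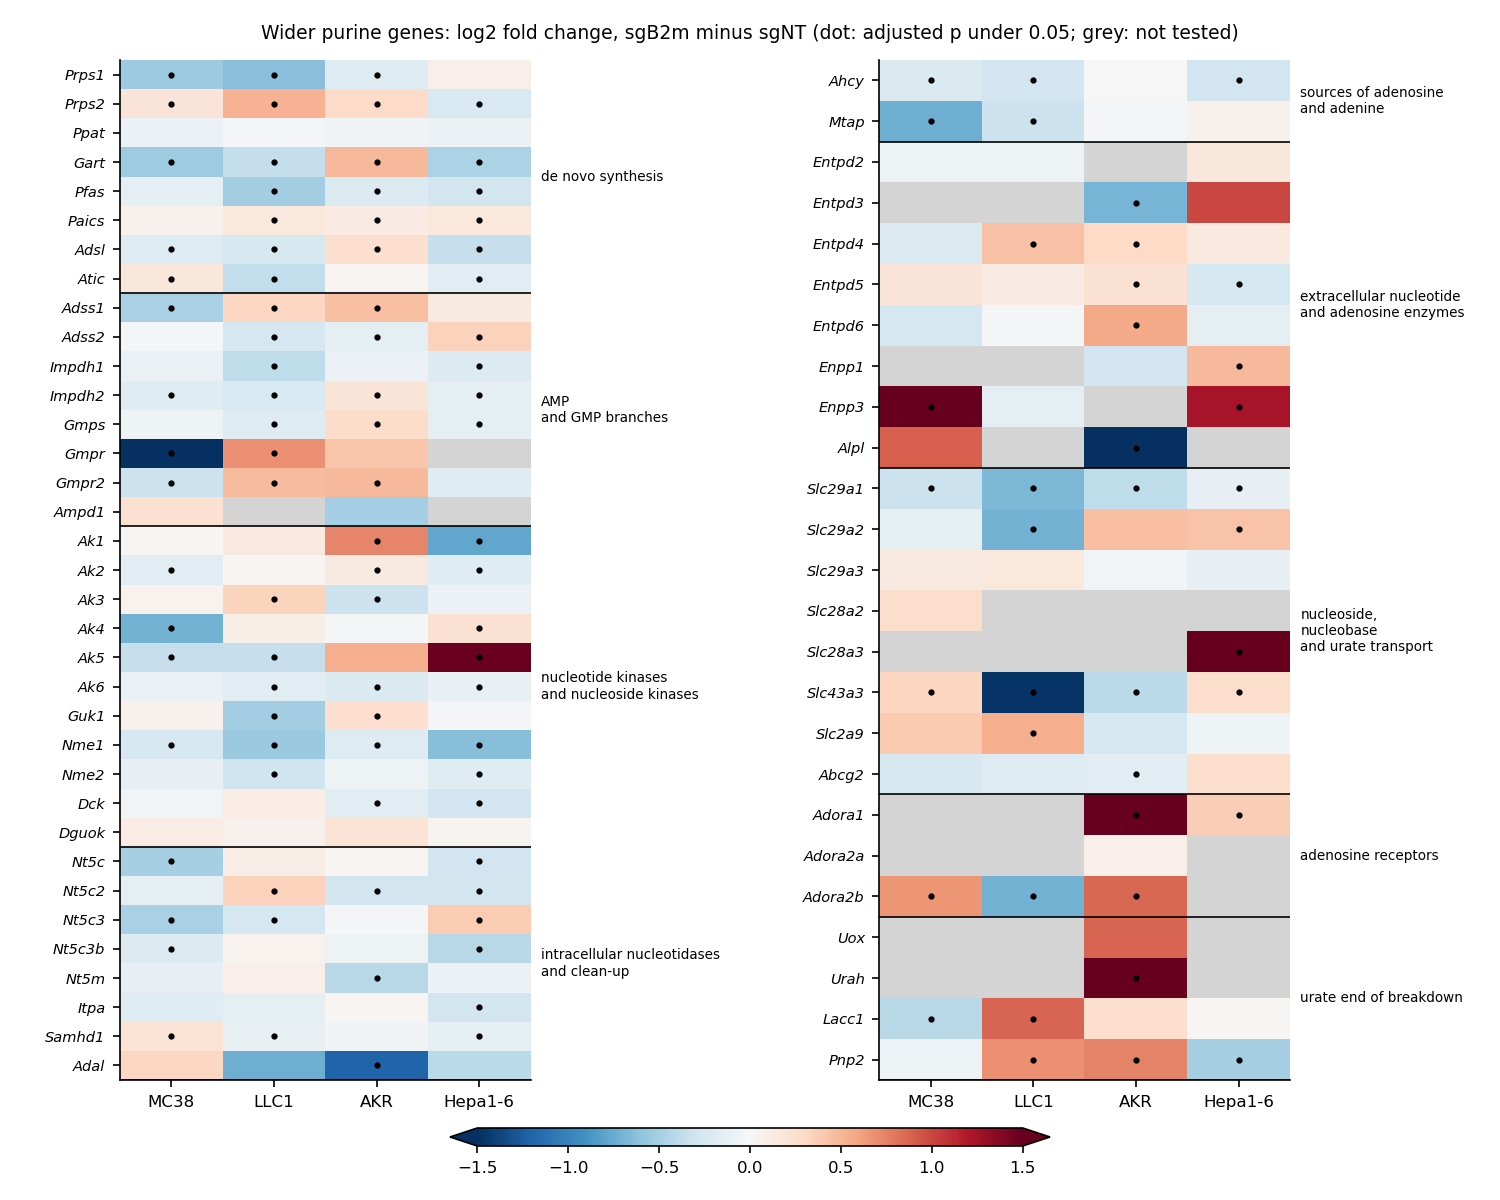
Log2 fold change (sgB2m minus sgNT) of the tested genes of the wider purine list in each line, grouped by role, with colour limited to 1.5 in each direction, a dot for an adjusted p under 0.05 and grey for genes not tested. Blue cells with dots outnumber red ones in MC38 (18 to 6), LLC1 (22 to 11) and Hepa1-6 (23 to 11), and AKR has 15 to 18.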

How the data were processed

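Strand-specific libraries of total RNA from 24 samples were sequenced, per the labels' protocols. The submitters' processing notes name FastQC (0.11.5), mm10, STAR and DESeq2; the gene counter and its strand setting are not given in the sources used here. The authors deposited 1 table per line of log2 values, read as log2(count divided by a size factor + 1), since the values of each library were whole multiples of 1 read within 0.05. Size factors presume that most genes keep their level, and the added 1 shrinks the fold changes of scarce genes.

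Tests used limma 3.58.1 in R 4.3.3 within each line, on genes with 3 or more of the 6 libraries at 3.5 or higher. The moderated test was two-sided, with an intensity trend and without covariates, followed by Benjamini-Hochberg adjustment over the genes tested in the line. The fit was tested on simulated data. RPKM were computed from recovered reads and exon lengths of GENCODE M21, with all annotated exons of a gene merged. The members, the wider list and the motifs were chosen with earlier results of these data known. Named by rank from the wider list were, per line, the 4 highest and 4 lowest called fold changes of at least 0.3 in size. Other genes of the list were named to fill out a count or to set a relative beside one of these. The 5 genes most like Ampd3 were named as well. Each fit was repeated under 13 alternatives. The bound given for Gda reflects counting error alone.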

Additional observations from a re-analysis of the deposited data

Results flagged for a closer look

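Some purine genes had groups that did not overlap in opposite directions in different lines. Over all tested genes, groups did not overlap for 45% (MC38) to 52.5% (AKR) in a line, and nothing is read from the number listed. Of the values below, the calls of Xdh, Entpd3 and Adora2b in AKR and of Gmpr in LLC1 ended under some alternatives. So did those of Ada, Ak1, Ak4 and Pnp2 in Hepa1-6. The difference between lines was not tested for any of them, and the values are log2 fold changes of sgB2m minus sgNT.

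Nt5e was at 0.94 in AKR and -3.52 in MC38. Xdh was at 1.05 in MC38 and -0.14 in AKR. Aprt was at 0.34 in AKR and -0.51 in MC38. Ada was at 0.44 in AKR and -0.72 in Hepa1-6, where it was scarce. Adk was at 0.26 in LLC1 and -0.60 in Hepa1-6. Pnp was at 0.45 in LLC1 and -0.31 in Hepa1-6, and its neighbour Pnp2 was at 0.74 in AKR and -0.50 in Hepa1-6. Of the other genes of the wider list that were named by rank, Gart was at 0.49 in AKR and -0.53 in MC38. Gmpr was at 0.68 in LLC1 and -1.82 in MC38. Ak1 was at 0.73 in AKR and -0.78 in Hepa1-6. In Hepa1-6 Ak4 was at 0.23 and Ak5 at 1.48, against -0.71 for Ak4 in MC38 and -0.35 for Ak5 in LLC1. Slc29a2 was at 0.43 in Hepa1-6 and -0.71 in LLC1, and Lacc1 was at 0.88 in LLC1 and -0.41 in MC38. The higher value was not called for Mtap (0.067 in Hepa1-6 and -0.74 in MC38), Alpl (0.89 in MC38 and -2.06 in AKR) and Entpd3 (1.01 in Hepa1-6 and -0.70 in AKR). Slc43a3 was at 0.32 in MC38 and -1.47 in LLC1, and Adora2b was at 0.87 in AKR and -0.71 in LLC1.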

How the results depend on the processing

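Each result was recomputed under 13 alternatives per line: no filter, a filter at a log2 value of 5, a pseudocount of 8, median centring, quantile normalisation, no intensity trend, the replicate number as a block, and each of the 6 libraries left out in turn. The number of called genes of the wider list stayed within 1.5 times its value, between 16 and 27 in MC38 (24 as reported), 31 and 34 in LLC1 (33), 24 and 33 in AKR (33) and 23 and 35 in Hepa1-6 (34). Of the 27 called values of the 10 genes, none changed sign, and 4 lost a call under some alternative (Xdh in LLC1 and AKR, Adk in AKR and Ada in Hepa1-6). Of the 31 values of the wider list named by rank, none changed sign and 7 lost a call. Urah in AKR could not be tested with the stricter filter or without any 1 of its sgB2m libraries. Replicate numbers did not pair the libraries, as correlations between same-numbered libraries lay between -0.028 and 0.051, and with the replicate block the wider list had 33 calls in LLC1, 32 in Hepa1-6, 30 in AKR and 24 in MC38. The block also ended the calls of Xdh and Adk in AKR and of Ada and Ak1 in Hepa1-6. Depth limits Gda outside MC38, Ada in Hepa1-6 and Nt5e in MC38 sgB2m, which rest on few reads.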
